A study of Homo sapiens with 8 samples.

Results

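The cyclin-dependent kinase (CDK) inhibitor genes described here are CDKN1A, CDKN1B, CDKN2A, CDKN2B, CDKN2C and CDKN2D, 6 of the 20037 protein-coding genes annotated on the assembly used. They were chosen by name, and each was read as its RefSeq gene span with a window of 50 kb added on either side. The windows of CDKN2A and CDKN2B overlap, so the 6 genes stand for 5 separate loci. The study mapped the histone variant macroH2A1 on chromatin of HepG2, an established human hepatoblastoma line, by CUT&RUN, which cuts out and sequences the DNA around antibody-bound sites in permeabilised cells. Cells were transfected with an siRNA against the histone chaperone ANP32B (siANP32B) or with a non-targeting siRNA (siControl) and harvested 3 days later, with 1 siRNA sequence in each arm and otherwise the same culture, so that both arms carry the transfection itself. There were 2 anti-macroH2A1 libraries per siRNA, and the 4 IgG libraries were not analysed here. The labels number the replicates but name no separate cultures, and all spreads and tests therefore describe these libraries, whose variation may be technical. The level of ANP32B was not analysed here.

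CDK inhibitors are small proteins that block the kinases driving the cell cycle. The CIP/KIP family, with p21 from CDKN1A and p27 from CDKN1B, binds complexes of CDKs with cyclins, while the INK4 family, encoded by CDKN2A, CDKN2B, CDKN2C and CDKN2D, binds CDK4 and CDK6 and keeps D cyclins from activating them. CDKN2A also encodes ARF, which is read from an upstream start in another frame and stabilises p53, and p53 in turn activates CDKN1A. CDKN2A and CDKN2B are classical targets of Polycomb silencing and of deletion in tumours, and CDKN1A, CDKN2A and CDKN2B are raised in senescence, a permanent arrest in which macroH2A gathers in condensed chromatin. macroH2A1 itself differs from H2A by a large added macro domain and is typical of broad stretches of weakly transcribed chromatin.

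The data are a list of enriched macroH2A1 domains for each library, on a 1 kb grid and with the caller's score for each domain, and the authors' deposited table of 4474 regions compared between siANP32B and siControl. The lists held 7530 and 7404 domains in the siANP32B libraries, against 8623 and 8116 in the siControl libraries. These domains covered 564 and 559 Mb in the siANP32B libraries, against 519 and 467 Mb in the siControl libraries. Read totals are in neither kind of file, so sequencing depth is unknown, and a domain that is missing from a list may lie below what that library could detect. Of all regions in the authors' deposited table, 58.4% were lower and 3.82% were higher after siANP32B, with a false discovery rate (FDR) of 0.05 as the threshold, and the median log2 fold of all its regions was -0.54. The scaling between libraries behind these folds is not given in the sources available to this work, and another scale would shift every fold by the same amount. No region of the authors' deposited table has values per library or a standard error.

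The start sites of the genes show how differently they sat in the domains. RefSeq promoters on GRCh38.p14 matched all 6 genes and gave 9 start sites, of which 1, that of CDKN1A, lay in a domain in all 4 libraries and 6 lay in no domain in any library. The other two, the ARF start of CDKN2A and the start of CDKN2B, each lay in a domain in a single library. The 250 bases before 4 of these starts are printed 5′ to 3′ on the strand of the gene, because they cover the 4 situations met: CDKN1A inside a domain throughout (chr6:36678464-36678713, plus strand), CDKN1B between domains (chr12:12717118-12717367, plus strand), the ARF start covered in siANP32B replicate 2 alone (chr9:21995325-21995574, minus strand) and the CDKN2B start covered in siControl replicate 1 alone (chr9:22009306-22009555, minus strand). Capitals mark the GC box GGGCGG, the binding motif of Sp1-type factors, read on either strand and so also as CCGCCC, with overlapping matches included.
CDKN1A: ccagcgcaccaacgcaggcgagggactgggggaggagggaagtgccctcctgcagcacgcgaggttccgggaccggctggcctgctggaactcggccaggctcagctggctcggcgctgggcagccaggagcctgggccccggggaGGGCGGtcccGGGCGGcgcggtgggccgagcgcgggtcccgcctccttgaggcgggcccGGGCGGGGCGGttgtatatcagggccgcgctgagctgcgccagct
CDKN1B: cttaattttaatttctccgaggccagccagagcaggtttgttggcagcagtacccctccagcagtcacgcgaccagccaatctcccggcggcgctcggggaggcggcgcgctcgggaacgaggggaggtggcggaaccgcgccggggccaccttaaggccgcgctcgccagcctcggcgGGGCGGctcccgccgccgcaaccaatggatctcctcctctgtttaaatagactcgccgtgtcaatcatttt
CDKN2A, ARF start: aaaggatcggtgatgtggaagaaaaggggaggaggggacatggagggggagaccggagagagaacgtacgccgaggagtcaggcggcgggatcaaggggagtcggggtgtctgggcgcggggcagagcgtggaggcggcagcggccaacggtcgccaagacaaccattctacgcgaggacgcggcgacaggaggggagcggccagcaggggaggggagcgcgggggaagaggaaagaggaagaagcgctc
CDKN2B: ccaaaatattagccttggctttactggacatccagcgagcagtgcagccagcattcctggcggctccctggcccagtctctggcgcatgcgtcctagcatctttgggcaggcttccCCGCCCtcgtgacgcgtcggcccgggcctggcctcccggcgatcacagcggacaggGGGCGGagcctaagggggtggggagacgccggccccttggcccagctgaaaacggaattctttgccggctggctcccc

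CDKN1A had 4 GC boxes in its 250 bases, CDKN1B had 1, CDKN2B had 2 and the ARF start had 0; 42.6% of all 35116 RefSeq promoters held at least 1. The TATA box TATAAA, searched on both strands, was in 10.7% of all promoters and in none of the 9 windows. The CDKN1A window held 27 CpG dinucleotides, more than 82.3% of all promoters, and the CDKN1B window held 27 as well. There were 24 before the ARF start, 20 before the other CDKN2A start, which gives p16, and 18 before CDKN2B. CDKN2C had 7, 35 and 10 at its 3 starts, and CDKN2D had 33. Over all promoters, the 5170 starts in a domain in all 4 libraries had a median of 6 CpGs, against 11 for the 20296 starts in no domain of any library and 11 for all starts. The CpG-rich CDKN1A start therefore lay in domains whose starts were mostly poorer in CpG, and the motif counts are descriptions of these windows only.

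**Figure D1:**
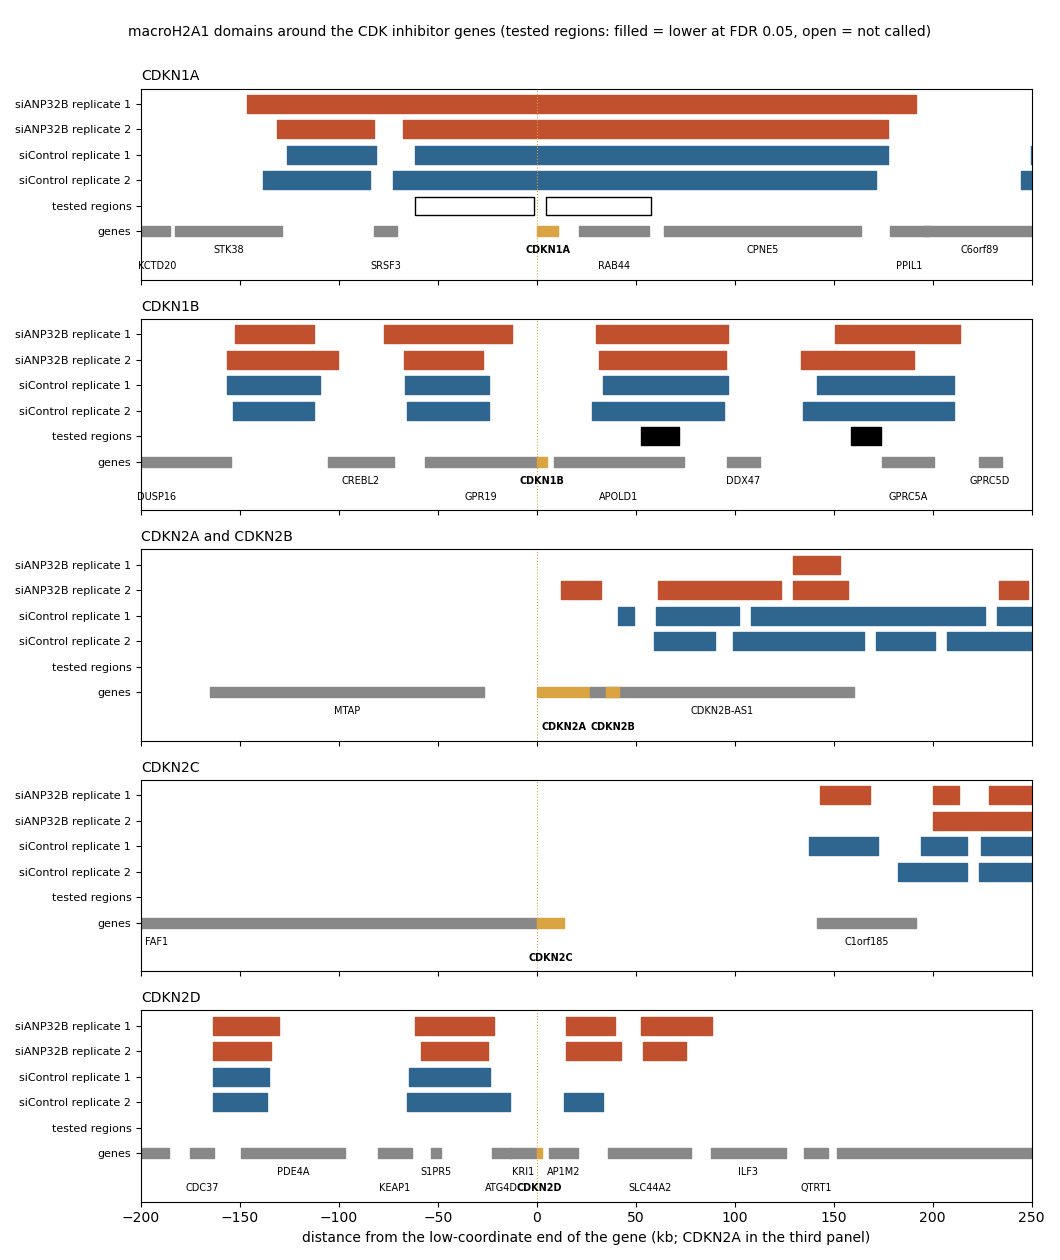
macroH2A1 domains in each library (orange bars, siANP32B; blue bars, siControl) around the CDK inhibitor genes (gold) and their neighbours (grey), with distance from the low-coordinate end of the gene in kb on the horizontal axis. Black boxes are regions of the authors' deposited table called lower at an FDR of 0.05, and open boxes are regions not called; CDKN1A lies inside a domain in all 4 libraries, CDKN1B and CDKN2D lie between domains, and CDKN2C lies in a long domain-free stretch.

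CDKN1A, whose product p21 is the main p53-driven brake on CDK2, lay wholly within macroH2A1 domains in both groups. The gene (chr6:36676463-36687332, hg38) and its whole 50 kb window were 100% covered in both siANP32B libraries and in both siControl libraries. It was the 1 gene of the 6 whose window was full in all 4 libraries, which held for 1.04% of all protein-coding genes. The gene lay in a single domain in each library. That domain ran over 338 kb in siANP32B replicate 1 and 245 kb in siANP32B replicate 2, against 239 kb in siControl replicate 1 and 244 kb in siControl replicate 2. It was longer than or as long as 97.9% and 95.8% of the domains of the siANP32B libraries, against 97.5% and 98.2% of those of the siControl libraries.

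The borders of the CDKN1A domain were close to each other in 3 of the 4 libraries. On the low-coordinate side the domain began at 36609001 in siANP32B replicate 2, against 36615001 and 36604001 in the siControl libraries, and siANP32B replicate 1 began at 36530001, beyond a gap near SRSF3 that was free of domains in the other libraries. The high-coordinate ends were 36868000 and 36854000 in the siANP32B libraries, against 36854000 and 36848000 in the siControl libraries. The caller's scores were 126 and 130 in the siANP32B libraries, against 152 and 126 in the siControl libraries. Within their own lists these scores were at or above 91.6% and 91.6% of the domains in the siANP32B libraries, against 89.4% and 73.6% in the siControl libraries. The groups therefore overlapped in the raw score and stood apart in the rank, by a margin that siControl replicate 1 made small.

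The authors' deposited table held 2 regions inside the CDKN1A domain, and neither was called. Beyond 36734000 the rest of the domain, up to its end between 36848000 and 36868000, had no tested region. The piece on the low-coordinate side (chr6:36615001-36675000) ended 1.46 kb before the gene span and had a log2 fold of -0.28 with an FDR of 0.215 in the authors' deposited table. Of its 51 windows, 0 were counted there as down and 0 as up. The piece on the other side (chr6:36681001-36734000) held 6.33 kb of the gene and had a log2 fold of -0.36 with an FDR of 0.292 in the authors' deposited table. Of its 44 windows, 0 were counted as down and 0 as up. Each fold is that of a representative window and was negative although 0 windows were counted as down. The counts therefore do not give the number of windows with a negative fold. Both folds were negative, and both were weaker than most: 75.8% and 70.5% of the regions in the authors' deposited table had a lower fold. Set against the table's median of -0.54 in place of 0, both pieces would lie on the higher side.

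The 6 kb between those pieces (chr6:36675001-36681000), also untested, held the CDKN1A start at 36678714, 3.71 kb from the start of the gap and 2.29 kb from its end. It also held DINOL, a p53-induced long noncoding RNA encoded just upstream, at 36677609-36678559, and the end of PANDAR, another noncoding RNA of the CDKN1A promoter region. Each fold in the authors' deposited table is therefore that of a representative window in a piece beside the start, not of the start itself. The position of that window within its piece was not analysed here, so neither fold can be assigned to the gene body. The domain lists did cover this stretch: PANDAR, DINOL and the other 5 annotated neighbours in the window, among them the coding gene RAB44, were 100% covered in all 4 libraries. Beyond those pieces, the nearest tested region above CDKN1A was 326 kb away, over FGD2. It was called lower, with a log2 fold of -0.80 and an FDR of 9.31e-05 in the authors' deposited table.

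CDKN1B, whose product p27 holds CDK2 inactive in resting cells, lay in a gap between macroH2A1 domains in every library. The gene (chr12:12717368-12722369) was 0% covered in both siANP32B libraries and in both siControl libraries. Its window was 60.0% and 43.8% covered in the siANP32B libraries, against 44.8% and 50.5% in the siControl libraries. The siANP32B libraries were the highest and the lowest of the 4, so the groups overlapped, and the means of 51.9% ± 11.4 after siANP32B and 47.6% ± 4.04 after siControl (SD, n = 2 each) differed by 4.29 percentage points, less than the pooled SD of 8.58. The exact permutation test (two-sided) gave p = 1.0; with 2 libraries in each group its smallest possible p is 0.333, so it cannot reach 0.05 for any gene.

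The gap around CDKN1B measured 42 and 59 kb in the siANP32B libraries, against 58 and 52 kb in the siControl libraries. On the low-coordinate side the domain ended in GPR19, an orphan receptor gene, 12.4 and 27.4 kb from CDKN1B in the siANP32B libraries, against 24.4 kb in both siControl libraries. On the other side it began in APOLD1, 24.6 and 26.6 kb from CDKN1B in the siANP32B libraries, against 28.6 and 22.6 kb in the siControl libraries. The shorter gap in siANP32B replicate 1 thus came from the GPR19 side. GPR19 was 78.3% and 51.7% covered in the siANP32B libraries, against 57.0% in both siControl libraries, and APOLD1, an endothelial early-response gene, was 67.8% and 64.8% covered in the siANP32B libraries, against 61.7% and 70.9% in the siControl libraries.

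The CDKN1B window held the only called region among the 6 genes, at its edge. This region (chr12:12770001-12789000) lay over APOLD1, 47.6 kb from CDKN1B, and 2.37 of its 19 kb were inside the window. All 10 of its windows were counted as down, with a log2 fold of -0.73 and an FDR of 3.26e-04 in the authors' deposited table. Of all regions in the authors' deposited table, 26.2% had a lower fold. Coverage did not differ there, since the region was 100% covered in all 4 libraries. The domain that contains it had scores of 82.3 and 74.1 in the siANP32B libraries, against 134 and 111 in the siControl libraries, and stood at or above 64.1% and 57.4% of the siANP32B lists, against 83.0% and 62.3% of the siControl lists. The domain on the GPR19 side had scores of 54.7 and 50.2 in the siANP32B libraries, against 77.9 and 77.5 in the siControl libraries, and ranked at or above 30.8% and 27.5% of the siANP32B lists, against 39.1% and 29.9% of the siControl lists. A further lower region outside the window, beginning 159 kb above the low-coordinate end of CDKN1B, had a log2 fold of -0.52 in the authors' deposited table. The median score of a whole list was 70.1 and 67.5 in the siANP32B libraries, against 88.9 and 97.7 in the siControl libraries, so lower scores after siANP32B were not particular to CDKN1B.

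CDKN2A and CDKN2B, the neighbouring INK4 genes that give p16, ARF and p15, lay beside macroH2A1 domains that covered the antisense RNA CDKN2B-AS1 (also called ANRIL), and the coverage of the CDKN2B window ranged more widely between libraries than that of any other window. CDKN2A (chr9:21967752-21995324) was 0% and 55.6% covered in the siANP32B libraries, against 0% in both siControl libraries. CDKN2B (chr9:22002903-22009313) was 0% in both siANP32B libraries, against 4.88% and 0% in the siControl libraries. In siANP32B replicate 1 no domain lay in either window, and the nearest began 102 kb above CDKN2A and 87.7 kb above CDKN2B. In siANP32B replicate 2 a 20 kb domain (chr9:21980001-22000000) covered 15.3 kb of CDKN2A, including the ARF start and the start of CDKN2B-AS1 but not the p16 start at 21974857. In siControl replicate 1 an 8 kb domain (chr9:22009001-22017000) reached 0.313 kb into CDKN2B and covered its start. In siControl replicate 2 neither gene was touched.

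The domain over the ARF start in siANP32B replicate 2 was a weak one by the caller's score. Its score of 46.1 was at or above 22.3% of that library's list. The 8 kb domain at the CDKN2B start in siControl replicate 1 scored 91.0, at or above 51.7% of its list, but its length was at or above that of 2.46% of the list. Each of these start-site domains was found in 1 library only, and neither was repeated in the other library of its group.

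Window coverage at this locus followed the same pattern. The CDKN2A window was 0% and 28.5% covered in the siANP32B libraries, against 19.9% and 14.4% in the siControl libraries. The CDKN2B window was 0% and 47.3% covered in the siANP32B libraries, against 36.9% and 29.1% in the siControl libraries. In both windows the siANP32B libraries were again the lowest and the highest of the 4. The means were 14.2% ± 20.1 after siANP32B and 17.1% ± 3.88 after siControl at CDKN2A, and 23.6% ± 33.4 after siANP32B and 33.0% ± 5.52 after siControl at CDKN2B (SD, n = 2 each; exact permutation p = 1.0 for both). The differences of -2.87 and -9.40 percentage points were smaller than the pooled SDs of 14.5 and 24.0, and each turned positive without siANP32B replicate 1, at 11.4 and 14.2 points.

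The other 3 libraries shared a domain inside CDKN2B-AS1, with nearly the same start. It began at 22029001 in siANP32B replicate 2, against 22028001 and 22027001 in the siControl libraries, and ran for 62 kb in siANP32B replicate 2, against 42 and 31 kb in the siControl libraries. Its score was 61.0 in siANP32B replicate 2, against 124 and 117 in the siControl libraries, at or above 41.5% of the list in siANP32B replicate 2, against 77.8% and 67.2% in the siControl libraries. CDKN2B-AS1, which spans 133 kb, was 18.0% and 71.4% covered in the siANP32B libraries, against 76.6% and 69.1% in the siControl libraries. MTAP, the methionine salvage gene on the other side of CDKN2A, was 0% covered in all 4 libraries.

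No region of the authors' deposited table lay in the windows of CDKN2A and CDKN2B. The nearest were 2788 kb below CDKN2A, with a log2 fold of -0.74 and an FDR of 0.0012 in the authors' deposited table, and 5377 kb above it, over MOB3B, with 0.40 and 0.409. The table therefore holds no test of the locus, and the domain lists are the only measurement of it here.

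A wider view, chosen after the domain lists of this locus had been seen, took 250 kb on either side. With those flanks CDKN2B had 24 and 125 kb in domains in the siANP32B libraries, against 214 and 202 kb in the siControl libraries. As shares these were 4.74% and 24.7% in the siANP32B libraries, against 42.3% and 39.9% in the siControl libraries. CDKN2A, whose wide window is nearly the same stretch, had 4.55% and 23.7% in the siANP32B libraries, against 40.4% and 37.4% in the siControl libraries. The groups did not overlap, with differences of -24.8 points at CDKN2A and -26.4 points at CDKN2B against pooled SDs of 9.69 and 10.0; the exact permutation p was 0.333, the smallest possible, and 0.5 with Benjamini-Hochberg adjustment over the 6 genes. The sequence that differed lay mostly above the genes: siControl replicate 1 had domains at 22076001-22194000 and 22200001-22246000 and siControl replicate 2 had several between 22067001 and 22250000. In the same stretch siANP32B replicate 1 had 22097001-22121000 alone, and siANP32B replicate 2 had 22097001-22125000 and 22201001-22216000 besides the end of its 62 kb domain.

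**Figure D2:**
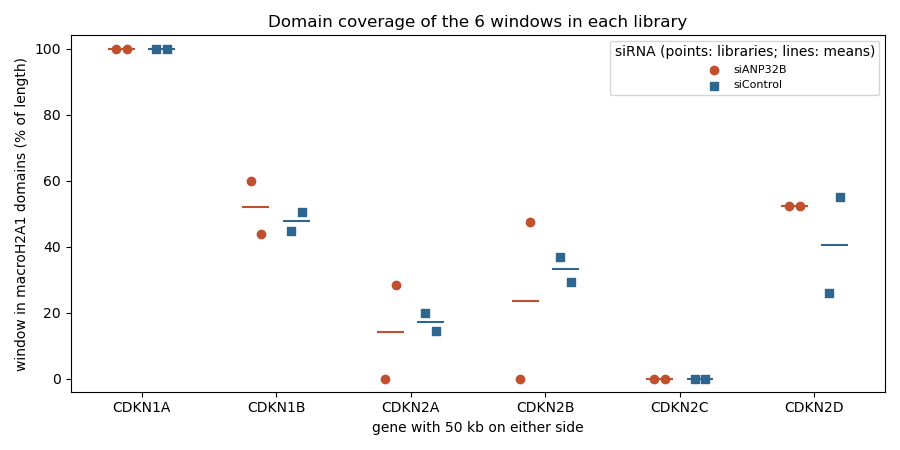
Share of each 50 kb window in macroH2A1 domains (vertical axis, percent of length) for the 6 genes, with 1 point per library (orange circles, siANP32B; blue squares, siControl) and short lines at the group means. The groups overlap at all 6 genes, with the 2 siANP32B libraries widest apart at CDKN2B (0% and 47.3%) and the 2 siControl libraries widest apart at CDKN2D (25.9% and 55.2%).

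CDKN2C, whose product p18 inhibits CDK4 and CDK6, lay far from any macroH2A1 domain. The gene (chr1:50960745-50974634) and its window were 0% covered in both siANP32B libraries and in both siControl libraries. No domain in the window in any library held for 1 of the 6 genes and for 23.8% of all protein-coding genes. The nearest domain began 129 and 186 kb above the gene in the siANP32B libraries, against 123 and 168 kb in the siControl libraries. Of all protein-coding genes, 77.5% and 81.3% were nearer to a domain in the siANP32B libraries, against 79.5% and 79.8% in the siControl libraries.

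The stretch without domains around CDKN2C was long and had nearly the same ends in every library. It measured 2618 and 2659 kb in the siANP32B libraries, against 2599 and 2643 kb in the siControl libraries. Its low-coordinate end was at 48486000 and 48502000 in the siANP32B libraries, against 48499000 and 48500000 in the siControl libraries, 2475 and 2459 kb below the gene in the siANP32B libraries, against 2462 and 2461 kb in the siControl libraries. The part without a domain in any library (chr1:48502001-51098000) was 2596 kb long, and 93 of the 8688 such stretches (1.07%) were as long or longer, with a median of 85 kb over all of them. Counted by genes, stretches as long held 3.85% of all protein-coding genes. The part around CDKN2C held 6 protein-coding genes, AGBL4, BEND5, ELAVL4, DMRTA2, FAF1 and CDKN2C. FAF1, which encodes a Fas-binding protein and ends beside CDKN2C, was 0% covered in all 4 libraries.

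No region of the authors' deposited table lay in the CDKN2C window. The nearest called one was 593 kb above, over OSBPL9, with a log2 fold of -0.52 and an FDR of 0.0409 in the authors' deposited table. With 250 kb flanks, again the view chosen after seeing the data, the coverage was 13.0% and 12.4% in the siANP32B libraries, against 19.0% and 14.7% in the siControl libraries. The groups did not overlap there, with a difference of -4.15 points against a pooled SD of 2.17 (exact permutation p = 0.333).

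CDKN2D, whose product p19 is another inhibitor of CDK4 and CDK6, lay like CDKN1B in a gap between domains, in a gene-dense stretch. The gene (chr19:10566460-10568979) was 0% covered in both siANP32B libraries and in both siControl libraries. Its window was 52.2% and 52.2% covered in the siANP32B libraries, against 25.9% and 55.2% in the siControl libraries. The siControl libraries were the lowest and the highest, so the groups overlapped. The means were 52.2% ± 0 after siANP32B and 40.5% ± 20.7 after siControl (SD, n = 2 each), and the difference of 11.7 points was below the pooled SD of 14.6 (exact permutation p = 1.0). Without siControl replicate 1 the difference was -2.93 points.

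The low value in siControl replicate 1 came mostly from a domain above CDKN2D that its list did not have, and for the rest from the lower-side domain, which ended 10 kb later in siControl replicate 2. The domain above was 25 and 28 kb long in the siANP32B libraries, against 20 kb in siControl replicate 2, and it began 12.0 kb from the gene in both siANP32B libraries, against 11.0 kb in siControl replicate 2. In siControl replicate 1 the next domain began 262 kb away. The gap around the gene was therefore 36 and 39 kb in the siANP32B libraries, against 288 and 27 kb in the siControl libraries. On the other side the domain ended 21.5 and 24.5 kb from the gene in the siANP32B libraries, against 23.5 and 13.5 kb in the siControl libraries.

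The neighbours of CDKN2D followed these borders. S1PR5, a sphingosine phosphate receptor gene, was 100% covered in all 4 libraries, and KRI1, directly beside CDKN2D, was 0% in all 4. ATG4D, a protease gene of autophagy, was 11.5% and 0% covered in the siANP32B libraries, against 0% and 95.6% in the siControl libraries. AP1M2, an adaptor subunit gene on the upper side, was 43.1% and 43.1% covered in the siANP32B libraries, against 0% and 49.9% in the siControl libraries. SLC44A2, a choline transporter gene, was 69.1% and 67.8% covered in the siANP32B libraries, against 0% in both siControl libraries. SLC44A2 was the neighbour whose 2 groups stood apart, through both domains above CDKN2D. The nearer one reached into SLC44A2 in both siANP32B libraries, ending at 10606000 and 10609000, but ended at 10600000, before it, in siControl replicate 2. A further domain lay over SLC44A2 in both siANP32B libraries and in neither siControl library.

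No region of the authors' deposited table lay in the CDKN2D window. The nearest were 318 kb below, over S1PR2, with a log2 fold of -0.05 and an FDR of 0.823 in the authors' deposited table, and 282 kb above, over C19orf38, with -0.68 and 0.0020. With 250 kb flanks the coverage was 29.3% and 22.5% in the siANP32B libraries, against 13.7% and 19.7% in the siControl libraries, a difference of 9.15 points against a pooled SD of 4.51, with no overlap (exact permutation p = 0.333).

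**Figure D3:**
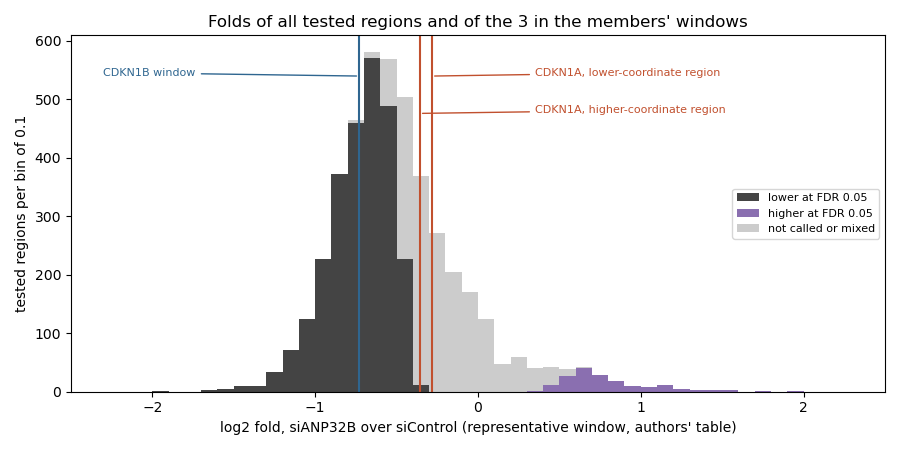
Number of regions in the authors' deposited table (vertical axis) by log2 fold of siANP32B over siControl (horizontal axis, bins of 0.1), coloured by call, with vertical lines at the 3 regions in the windows of CDKN1A and CDKN1B. The CDKN1B line, at -0.73, lies among the lower calls, and the CDKN1A lines, at -0.28 and -0.36, lie to the right of most regions.

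Over the 6 genes, coverage of at least 50% of the gene span in both libraries held for 1 gene, CDKN1A, after siANP32B and for the same 1 after siControl. Over all protein-coding genes, 17.2% passed in both siANP32B libraries and 13.7% in both siControl libraries. The order of window coverage in the siANP32B means was CDKN1A at 100%, CDKN2D at 52.2%, CDKN1B at 51.9%, CDKN2B at 23.6%, CDKN2A at 14.2% and CDKN2C at 0%, and in the siControl means CDKN1B stood above CDKN2D. CDKN1B and CDKN2D did not differ beyond their spread in either group. CDKN2A and CDKN2B overlapped in the siANP32B libraries, while in the siControl libraries CDKN2B, at 36.9% and 29.1%, stood above CDKN2A, at 19.9% and 14.4%; their windows share most of their sequence. A gene span without a domain inside a window that has one, in all 4 libraries, described CDKN1B and CDKN2D, 2 of the 6, against 10.0% of all protein-coding genes.

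No gene of the 6 had window coverage in both siANP32B libraries above or below both siControl libraries. Over all protein-coding genes, 18.8% were above and 7.11% below. This depended on the domains counted. With only the domains at or above the median score of each list, the groups stood apart at 3 genes, which lie at 2 loci. The differences were -17.1 points at CDKN2A, -33.0 at CDKN2B and 42.5 at CDKN2D (exact permutation p = 0.333 for each). The cut-offs were unequal, at 70.1 and 67.5 in the siANP32B libraries, against 88.9 and 97.7 in the siControl libraries. At CDKN2D they dropped the lower-side domain of siControl replicate 1, with a score of 88.1, just below its cut-off, and that of siControl replicate 2, with 54.0. The upper-side domain of siANP32B replicate 2, with a score of 73.4, was kept. CDKN2D also stood apart, at 29.5 points, with equal numbers of best-scored domains, and at 17.8 points with 100 kb flanks (exact permutation p = 0.333 for both). The shares of 18.8% and 7.11% hold for all domains and 50 kb flanks, and no such share is given for these other settings. The mean over the 6 windows was 35.4% and 45.3% in the siANP32B libraries, against 37.9% and 41.5% in the siControl libraries. The group means of 40.3% ± 7.02 after siANP32B and 39.7% ± 2.55 after siControl (SD, n = 2 each) differed by 0.62 percentage points, well within the spread, and the 2 siANP32B libraries were again the lowest and the highest. Over all protein-coding genes the windows averaged 28.7% after siANP32B and 25.2% after siControl, with a median difference of 0 points and a middle range of -0.65 to 7.70 points between the quartiles. With the 250 kb flanks chosen after seeing the data, CDKN2A, CDKN2B and CDKN2C lay below in both siANP32B libraries, 3 of 6 genes at 2 loci, against 7.86% of all protein-coding genes, and CDKN2D lay above, 1 of 6 against 29.3%.

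Windows with a region of the authors' deposited table were those of CDKN1A and CDKN1B, 2 of 6, against 30.1% of all protein-coding genes. A lower region was in 1 of the 6 windows, that of CDKN1B, against 19.4% of all genes, and a higher region in 0 of 6, against 1.23%. These counts were close to the shares over all genes. None of the 4 INK4 genes had a tested region in its window. Around all domains the borders of the same side lay a median of 13 kb apart between the siANP32B libraries and 11 kb apart between the siControl libraries, against 13 to 16 kb between libraries of different groups, so border shifts of that size were ordinary in these lists.

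**Figure D4:**
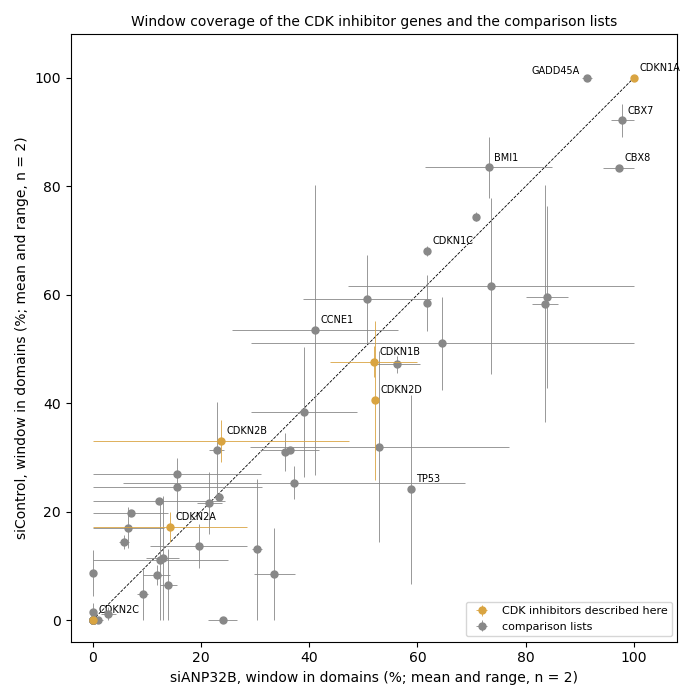
Window coverage in siANP32B (horizontal axis) and siControl (vertical axis), in percent of length, for the 6 CDK inhibitor genes (gold) and the genes of the comparison lists (grey), each as the mean of 2 libraries with lines spanning the 2 values; the dashed line marks equal coverage. CDKN1A is at 100% in both groups and CDKN2C at 0% in both, GADD45A lies above the line, and CBX8 lies below it.

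For the rest of the pathway, 8 lists of 52 genes were read the same way: other CDK-inhibiting proteins, cyclins, cell cycle CDKs, pocket proteins, E2F and DP factors, the p53 family with its regulators, growth arrest targets of p53, and Polycomb subunits. At least 50% of the span was covered in both siANP32B libraries for 3 of the 52 genes, against 17.2% of all protein-coding genes, and in both siControl libraries for 3, against 13.7%. Window coverage was above in both siANP32B libraries for 10 of the 52, against 18.8% of all protein-coding genes, and below for 6, against 7.11%. Regions of the authors' deposited table overlapped 3 of the 52 genes, with 1 called lower and 0 higher; over all protein-coding genes the shares were 9.25% for any region, 5.61% for a lower one and 0.539% for a higher one. Coverage of the gene span like that of CDKN1A was found at CDKN1C, whose product p57 is the remaining CIP/KIP inhibitor and which was 100% covered in all 4 libraries. Its window was 62.2% and 61.2% covered in the siANP32B libraries, against 67.1% and 69.0% in the siControl libraries, with no overlap between the groups.

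The called gene was GADD45A, a p53 target of growth arrest and DNA repair. Its span was 57.4% and 0% covered in the siANP32B libraries, against 100% in both siControl libraries, and its window was 92.2% and 90.3% covered in the siANP32B libraries, against 100% in both siControl libraries. The region over it (chr1:67634001-67686000) had a log2 fold of -1.17 and an FDR of 4.86e-09 in the authors' deposited table. GADD45A and CDKN1A, both p53 targets inside domains in siControl cells, thus had different values in the authors' deposited table: a lower call at GADD45A and no call at CDKN1A, with no test of the difference between them. The other tested genes were E2F2, an activating E2F, and CCNB3, a B-type cyclin named after its values were seen. In the authors' deposited table the region of CCNB3 with the smallest FDR had a log2 fold of -0.57 at 0.0608, and that of E2F2 had -0.18 at 0.422.

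Among the kinases and cyclins that the inhibitors act on, no gene of the CDK list was covered by at least 50% in both libraries of a group. CDK1 had 29.1% and 76.8% of its window covered in the siANP32B libraries, against 49.6% and 14.3% in the siControl libraries, so its groups overlapped. CDK2 had 0% of its window covered in all 4 libraries, and CDK4, a target of the INK4 proteins, had 0% in both siANP32B libraries, against 0% and 3.13% in the siControl libraries. CCND3, a D cyclin, was 96.5% and 0% covered in the siANP32B libraries, against 42.6% and 27.8% in the siControl libraries, so its groups overlapped. E2F1, a target of the pocket proteins, was 100% and 21.9% covered in the siANP32B libraries, against 100% and 3.53% in the siControl libraries. In both E2F1 and CCND3 the replicates of each group differed by more than the group means did.

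The Polycomb list, of subunits known to act at the CDKN2A locus, had 4 of 8 windows above in both siANP32B libraries and 1 below, against 18.8% and 7.11% of all protein-coding genes. Lists of this size varied: the cyclins had 1 of 10 above and 3 below, and the E2F and DP factors had 2 of 10 above and 0 below. Some Polycomb margins were narrow: the lower siANP32B and higher siControl values were 95.7% and 95.1% at CBX7, and 35.2% and 34.5% at EED. The window below was that of SUZ12, at 0% and 14.0% in the siANP32B libraries, against 20.1% and 19.5% in the siControl libraries. The groups overlapped at BMI1, with 61.4% and 84.9% in the siANP32B libraries, against 89.2% and 77.8% in the siControl libraries. CBX7 was 100% covered in both siANP32B libraries, against 100% and 68.0% in the siControl libraries. CBX8 was 100% covered in both siANP32B libraries, against 1.56% and 17.6% in the siControl libraries, and its window was 100% and 94.3% covered in the siANP32B libraries, against 82.8% and 83.8% in the siControl libraries. Neither gene overlapped a region of the authors' deposited table.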

How the data were processed

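CUT&RUN for macroH2A1 was done in HepG2 cells given siANP32B or siControl, with 2 libraries each. The submitters' processing notes name build hg38 and edgeR, SICER, deepTools, SAMtools, Bowtie2 and Trim Galore, without versions or settings. The authors deposited a domain list per library, called per library, with a score per domain; the control used by the caller is not given, and the score served only to rank or filter domains within a list. Per the file headers, the authors' deposited table holds 4474 regions, each with a p-value, its false discovery rate, a representative window's fold, taken as log2 as edgeR writes it, and numbers of windows, treated as a score. Adjusting the p-values over the whole table by Benjamini-Hochberg returned the same false discovery rates (largest difference 1.11e-15). The order of the groups is not written in the table: a positive fold was read as higher after siANP32B, since its higher regions were on average 97.8% and 97.8% in domains in the siANP32B libraries, against 84.0% and 75.4% in the siControl libraries. The number of per-sample columns left out was 0.

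Gene spans were taken from RefSeq on GRCh38.p14, which is hg38, and promoters from its table of start sites. Coverage is the percent of bases of a span or window in domains; a gene counted as covered from 50%. Groups were compared by exact permutation tests over libraries (two-sided, smallest p 0.333), with Benjamini-Hochberg adjustment over the 6 genes. The depth is unknown, so no intervals are given. The coverage and permutation code was tested on simulated data. Python 3.11.15, pandas 2.3.3, numpy 2.4.6, scipy 1.17.1 and matplotlib 3.10.9 were used. Named genes were the 6 members, annotated genes in their windows and, from the comparison lists, those in called regions and up to 4 per list with the largest coverage in both siControl libraries; other names were chosen after their values were seen. The members and lists were chosen with earlier results of these data known. Alternatives were flanks of 25 and 100 kb, other thresholds for coverage, score and false discovery rate, equal numbers of domains, each library left out, and a replicate block; flanks of 250 kb were added after seeing the data.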

Additional observations from a re-analysis of the deposited data

How the results depend on the processing

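Differences are in percentage points, siANP32B minus siControl. The mean over the 6 windows, 0.62 in the report, was -1.28 with domains at or above the median score of each list, -6.86 with the 250 kb flanks added after the data were seen, and between -4.34 and 5.58 when 1 library was left out. That median-score setting hid opposite moves, to -17.1 at CDKN2A, -33.0 at CDKN2B and 42.5 at CDKN2D. Equal numbers of domains took CDKN2D to 29.5. These moves came from the domains that each setting left out. The median setting dropped both domains of siANP32B replicate 2 in the CDKN2A and CDKN2B windows. Their scores were 46.1 and 61.0, against a list median of 67.5. Equal numbers dropped the lower-side domain of siControl replicate 2 at CDKN2D, whose score of 54.0 was at or above 8.33% of its list. Why scores differed between libraries was not tested. With 25 kb flanks CDKN2A had 7.73 and CDKN2B 3.27. Leaving out 1 library gave -17.1 to 11.4 at CDKN2A, -33.0 to 14.2 at CDKN2B, -3.81 to 12.4 at CDKN1B and -2.93 to 26.3 at CDKN2D; the cause of these reversals was not tested, and with 1 library left in a group they are values without a test. The number of genes covered in both siANP32B libraries, 1 in the report, ran from 1 to 2 when a library was left out, the second being CDKN2A. The lower region near CDKN1B is counted only through its edge: the count was 0 with 25 kb flanks and 0 when at least 50% of a region had to lie inside the window. For the mean and the counts, 26 values under alternatives stayed with the report, 4 turned and 3 moved; for the single genes these numbers were 50, 6 and 4. With the replicate block the mean difference was again 0.62 (exact sign-flip p = 1.0, smallest possible 0.5). The labels do not say whether equal replicate numbers mark paired libraries. Replicate differences in the groups had a correlation across genes of 0.0819, which cannot decide this, because pairing need not move the domains of both groups alike. Unknown depth limits every absence of a domain.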

Other observations

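The stretch around the CDKN1A start that the authors' deposited table leaves untested has parallels elsewhere in it. Tested regions held 1507 RefSeq start sites in 114 Mb, or 13.2 per Mb. The 297 gaps of at most 10 kb between neighbouring tested regions held 51 start sites in 2.28 Mb, or 22.3 per Mb. A start site was in 12.1% of the gaps, which had a median length of 8 kb, against 21.9% of the tested regions, which had a median length of 18 kb. These are values over all such gaps, chosen after the gap at CDKN1A had been seen, and no test was made.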
